A study of Helianthus annuus with 15 samples.

Results

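A set of 39 sunflower genes was lower in leaf than in each other sampled tissue, here called low only in leaf. The name refers to leaf as the lowest tissue. Some of the genes were also lower in axil, root or flower than in the remaining tissues outside leaf. The 39 were selected on measured values, from 57688 identifiers starting HannXRQ_Chr among 63411 in the table. The mean of log2(FPKM + 1) in leaf had to lie at least 2 below that of each other tissue, and the highest leaf library had to lie below the lowest of the other 12. The low leaf level is therefore a description of how the genes were chosen, and no test of it is given. The samples were leaf, axil, root, flower and stem of sunflower (Helianthus annuus), with 3 libraries of oligo(dT)-captured mRNA per tissue and 15 in all. The labels name the tissue and nothing more: no cultivar, plant age, leaf position or treatment, and no plant to which a library belongs. The p-values below therefore cover no more than the spread among libraries of a tissue, and that spread may be technical.

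FPKM is the read number scaled by gene length and by the library's total, so levels of different genes can be compared per length. Leaf blades are made mostly of photosynthetic mesophyll and export sugar. Roots, stems and flowers import it, and they hold a larger part of supporting, conducting or reproductive tissue. The axil is the angle between leaf and stem, where side shoots start. In whole tissue, fewer cells of a type and less RNA per cell cannot be told apart. The table pairs none of the 39 identifiers with a gene name or product, and none (0) of the table's identifiers matched the reference gene table. The genes are therefore given by identifier, with no role, and the labelled tissues were not checked against marker genes.

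Library totals of 12087704 to 14732362 reads were recovered from the FPKM steps. For a gene of 1 kb, a floor of 3 reads is worth 0.204 to 0.248 FPKM, and it covers counting error only. Leaf 2 correlated less with the axil libraries (mean r = 0.765 across genes tested) than Leaf 1 (0.824) and Leaf 3 (0.834) did, and more with the flower libraries (0.747, against 0.702 and 0.724). Leaf 2 also correlated less with the other leaf libraries (0.915, against 0.940 and 0.939) and with root (0.558, against 0.614 and 0.625). With stem it lay between them (0.759, against 0.749 and 0.773). Axil 3 correlated less with the stem libraries (0.754) than Axil 1 (0.851) and Axil 2 (0.803). It was also lowest with leaf (0.788, against 0.821 and 0.813) and flower (0.697, against 0.753 and 0.743), and highest with root (0.724, against 0.710 and 0.706). Within axil it lay between them (0.943, against 0.938 and 0.959).

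The same rule applied to each other tissue gave very different numbers. It found 1 gene low only in axil, 706 low only in root, 104 low only in flower and 21 low only in stem. Loosening the margin to 1 gave 345 genes low only in leaf, 42 in axil, 1805 in root, 528 in flower and 118 in stem. Among all 34586 genes tested, those reaching 1 FPKM in 3 or more libraries, leaf was the lowest tissue for 28.4% and root for 27.5%. Leaf was thus the lowest tissue about as often as root, while far fewer genes stood at least 2 below every other tissue in leaf than in root. Only 2 further identifiers had a leaf margin of at least 2 and were left out because a leaf library was not below the other 12.

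Margins below the next lowest tissue ran from 2.02 to 4.91, with a median of 2.39. HannXRQ_Chr12g0356601 on chromosome 12 had the largest, at 4.91. It had 0.558, 2.01 and 0.853 FPKM in leaf, against 78.2, 73.9 and 38.7 in axil, 113, 79.3 and 120 in root, 226, 419 and 259 in flower and 129, 244 and 99.7 in stem. Its leaf mean was 0.729% of the mean of the 12 other libraries, and flower libraries were above axil and root libraries without overlap. HannXRQ_Chr11g0350591 on chromosome 11 was next, with a margin of 3.97 and the highest mean of the 39 over the 12 other libraries (455 FPKM). It had 3.37, 4.92 and 10.9 FPKM in leaf, against 190, 91.7 and 65.7 in axil, 298, 1718 and 503 in root, 253, 196 and 286 in flower and 488, 994 and 381 in stem. Root 2 alone was far above the other root libraries, and the root mean was 401 FPKM without it.

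At the other end, HannXRQ_Chr17g0549541 (margin 2.05) and HannXRQ_Chr03g0078771 (2.02) were just inside the rule. HannXRQ_Chr06g0170311 (1.98) and HannXRQ_Chr08g0234951 (1.97) were just outside it, with leaf levels of 1.33 to 2.09 FPKM and 0.416 to 0.636 FPKM. The gap between the highest leaf library and the lowest other library was under 1 on the log2 scale for 9 of the 39. It was narrow for HannXRQ_Chr16g0530681, which was at 1.95, 1.69 and 2.76 FPKM in leaf and at 64.1, 32.4 and 3.66 in stem. Stem 3 alone brought that gene close to its leaf level, and it was chosen for description after its values were seen.

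**Figure D1:**
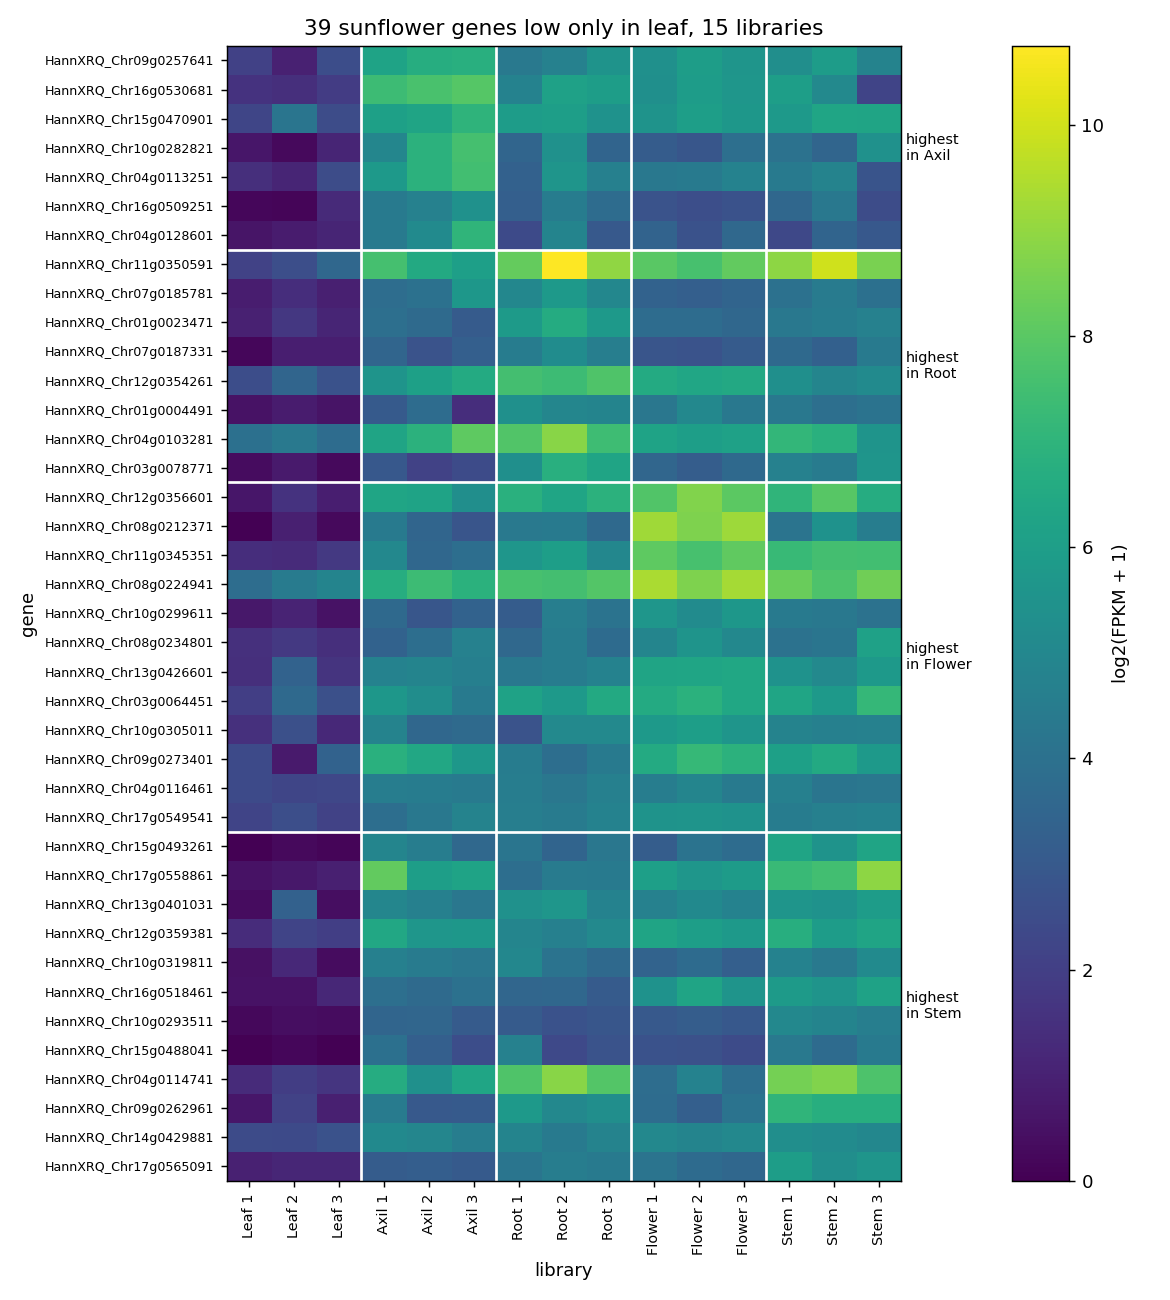
Level of the 39 genes (rows) in the 15 libraries (columns) as log2(FPKM + 1), with genes grouped by the tissue other than leaf with the highest mean. The 3 leaf columns are darker than the other 12 in every row, by the rule, and the rows differ in where they are bright: 7 genes peak in axil, 8 in root, 12 in flower and 12 in stem.

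Low in leaf did not mean absent from leaf. The leaf mean was under 1 FPKM for 14 of the 39, 1 to under 5 for 19 and at least 5 for 6. Over the 39 genes, leaf means had a median of 1.88 FPKM, and the medians in the other tissues were 26.0 in axil, 27 in root, 35.6 in flower and 34.3 in stem. The leaf mean was between 0.265% and 18.4% of the mean of the 12 other libraries, with a median of 4.42%. The 39 genes together took 147, 263 and 195 of every 1000000 reads in the leaf libraries, against 2699 to 5508 in the other 12. In each leaf library, 3 to 5 of the genes rested on 3 reads or fewer.

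Genes at either end of this range differed in how well leaf measured them. HannXRQ_Chr15g0488041 on chromosome 15, chosen after its values were seen as the lowest in leaf, had 0 reads in Leaf 1 and Leaf 3 and 2 reads in Leaf 2, and between 4.22 and 25.4 FPKM in the other 12 libraries. HannXRQ_Chr08g0224941 on chromosome 8 was the most abundant of the 39 in leaf, with 13.3, 21.3 and 27.5 FPKM. It had 103, 163 and 116 in axil, 197, 183 and 230 in root, 671, 409 and 630 in flower and 309, 214 and 336 in stem. HannXRQ_Chr04g0103281 on chromosome 4 came second in leaf, with 14.8, 19.4 and 13.0 FPKM. It had 76.4, 118 and 270 in axil, 228, 455 and 170 in root, 73.7, 64.0 and 71.0 in flower and 138, 111 and 46.0 in stem. Both genes were well above the detection floor in leaf, so their low leaf level does not rest on a few reads.

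The 3 leaf libraries did not share 1 level. Leaf 2 was the highest leaf library for 23 of the 39 genes (59.0%), Leaf 3 for 15 and Leaf 1 for 1. Among all genes tested, Leaf 2 was the highest for 41.6%, Leaf 3 for 24.4% and Leaf 1 for 34.0%. Leaf 2 was at least 2 times the higher of the other two for 12 of the 39 (30.8%) and for 12.3% of all genes tested. Within the 39, the counts differed with the tissue in which a gene peaked. The same split was not made over all genes tested. Leaf 2 was highest for 22 of the 32 genes that peaked in root, flower or stem, and for 1 of the 7 that peaked in axil, where Leaf 3 was highest for 6. The part of Leaf 2 as a library in these levels was not tested.

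On the log2(FPKM + 1) scale, the leaf libraries lay furthest apart in HannXRQ_Chr13g0401031 on chromosome 13, taken for description after its values were seen. It had 0.281, 9 and 0.307 FPKM in leaf, against 29.3, 24.9 and 18.4 in axil, 42.7, 48.7 and 25.8 in root, 25.1, 33.5 and 26.5 in flower and 47.1, 43.6 and 61.0 in stem. Leaf 2 held 236 reads of it, while Leaf 1 held 7 and Leaf 3 held 9. HannXRQ_Chr15g0470901, also chosen afterwards, was at 3.74, 17.3 and 4.71 FPKM in leaf. Without Leaf 2 the rule found 55 genes, 37 of them among the 39.

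**Figure D2:**
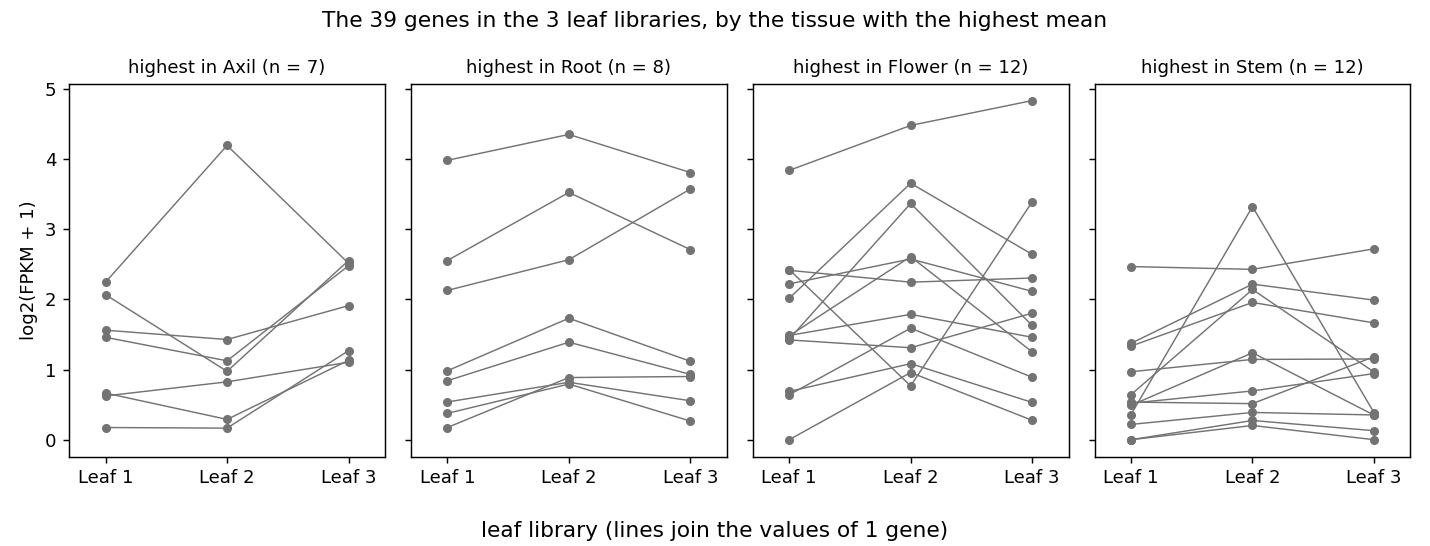
Level of each gene in Leaf 1, Leaf 2 and Leaf 3 as log2(FPKM + 1), in 4 panels by the tissue in which the gene peaked; a line joins the 3 values of a gene and implies no order. Leaf 2 is the highest point for 22 of the 32 genes in the root, flower and stem panels and for 1 of the 7 in the axil panel.

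Differences among the 4 other tissues were tested with limma on all 34586 genes and 15 libraries. The rule set each of these tissues against leaf and not against each other, but it used the mean of each, so the tests are not fully separate from the choice of the genes. The 39 genes did not form 1 expression pattern outside leaf: 7 peaked in axil, 8 in root, 12 in flower and 12 in stem. A peak here is the highest of the 4 tissue means, and it needs no tested difference. By the moderated F test, 33 of the 39 (84.6%) differed among axil, root, flower and stem, against 76.8% of all genes tested. That share is close to the background, and the F test does not ask whether genes share a pattern. A pairwise difference was called when its adjusted p (Benjamini-Hochberg) was below 0.05 and its size on the log2 scale was 1 or more. Of the 39, 4 (10.3%) were called in none of the 6 pairwise comparisons, against 44.3% of all genes tested (7 without Flower 2).

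The rule gives the 39 genes a floor in each of the 4 tissues, so the calls were also set beside the 15448 genes tested with a mean log2(FPKM + 1) of at least 2 in all 4. Of those, 76.1% differed by the F test and 58.7% were called in none of the 6 comparisons. Those genes were less abundant, with a median of 14.7 FPKM over the 12 libraries, against 35.5 FPKM for the 39. The part of abundance in the counts that follow was not tested.

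In axil minus stem, 6 of the 39 were higher and 14 lower, where 9.50% and 10.7% of all genes tested were called in those directions. The median log2 difference was -0.79 for the 39 and 0.07 for all genes tested. Without Axil 3, 3 genes were higher in axil than stem and 10 lower. In axil minus root, 8 were higher and 10 lower (background 13.7% and 11.2%), with medians of -0.25 and 0.10. In axil minus flower, 7 were higher and 11 lower (background 13.3% and 13.6%), with medians of -0.13 and 0.07. At a required log2 difference of 2, lower calls outnumbered higher ones in neither of these, with 6 higher and 5 lower in axil minus root and 5 higher and 5 lower in axil minus flower. In axil minus stem, 4 were then higher and 6 lower. Among the genes with the floor, lower calls were 6.85% in axil minus stem, 5.11% in axil minus root and 8.21% in axil minus flower, against 35.9%, 25.6% and 28.2% of the 39 genes. Higher calls, in the same order, were 6.61%, 8.89% and 10.6% of the genes with the floor, against 15.4%, 20.5% and 17.9% of the 39. The shares of the 39 were thus the larger ones in both directions.

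In root minus stem, 5 were higher and 9 lower (background 15% and 18.0%), with medians of -0.40 for the 39 and -0.04 for all genes. The lower calls were 23.1% of the 39, against 11.9% of the genes with the floor. In root minus flower, 9 were higher and 12 lower (background 17.5% and 20.7%), with medians of 0.03 for the 39 and -0.01 for all genes, and the lower calls were 30.8% of the 39 and 13.9% of the genes with the floor. In flower minus stem, 3 were higher and 9 lower (background 8.60% and 8.98%), with medians of -0.21 and 0.00. The lower calls there made up 23.1% of the 39, against 6.29% of the genes with the floor. Higher calls also made up a larger share of the 39 than of the genes with the floor. The shares were 12.8% and 9.02% in root minus stem, 23.1% and 11.7% in root minus flower, and 7.69% and 4.38% in flower minus stem.

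**Figure D3:**
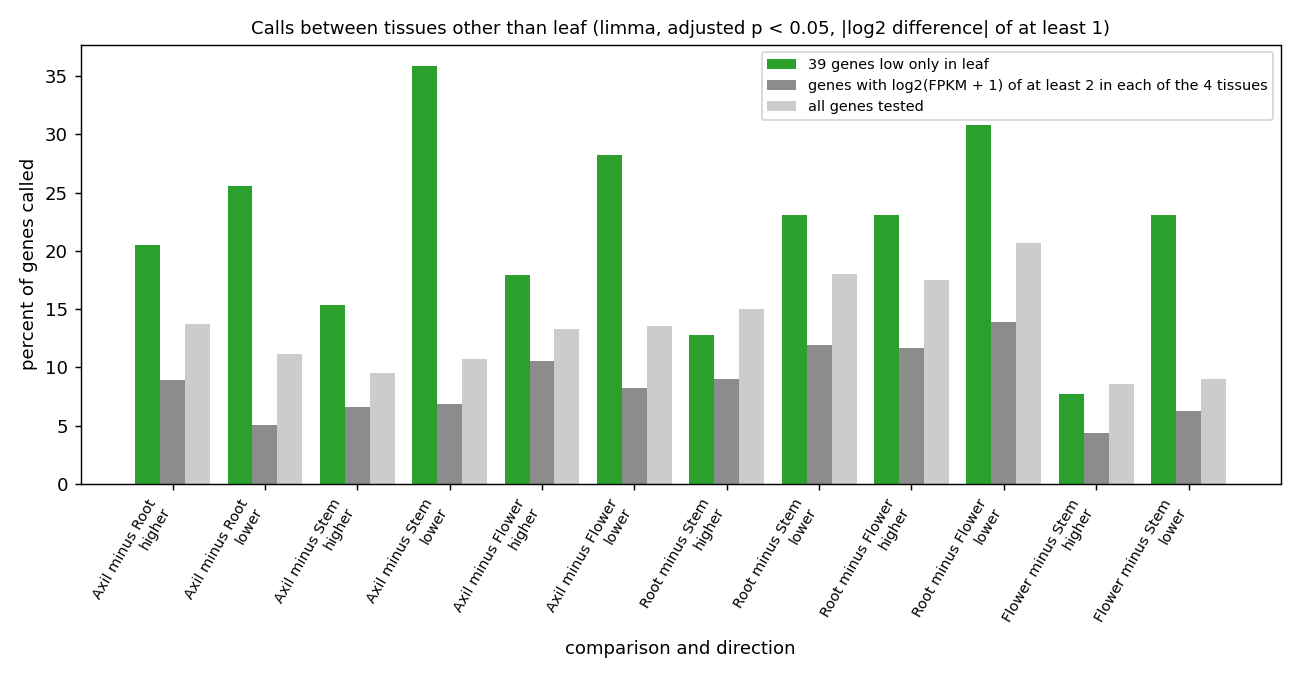
Percent of genes called in each direction of the 6 comparisons between tissues other than leaf, for the 39 genes (green), the 15448 genes with the floor in all 4 tissues (dark grey) and all 34586 genes tested (light grey). The bars for lower in axil than stem stand furthest apart, at 35.9%, 6.85% and 10.7%.

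Axil was also the next lowest tissue, the one that set the margin, for 15 of the 39, ahead of flower with 10, root with 9 and stem with 5. Among the genes with the floor, axil was the lowest of the 4 for 15.5%, root for 31.1%, flower for 30.6% and stem for 22.9%. As this order enters the rule, it is given as a description. Of the 15, 8 peaked in flower, 4 in root and 3 in stem. Over all 39, 17.9% peaked in axil, 20.5% in root, 30.8% in flower and 30.8% in stem. Among the genes with the floor, those shares were 29.1%, 28.0%, 23.6% and 19.3%.

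The 7 genes that peaked in axil had axil means of 29.4 to 203 FPKM and leaf means of 0.552 to 8.58 FPKM. Axil 3 was the highest axil library for all 7, and the share over all genes tested was not computed. Of the 39, 4 (10.3%) were called higher in axil than in each of root, flower and stem, where 2.59% of all genes tested and 1.20% of the genes with the floor were. None (0) of these calls held in all 3 comparisons without Axil 3 or without Root 1, by limma in both cases, while 6 genes passed at an unadjusted p under 0.05 with all libraries and 4 with voom. Each pairwise difference stayed positive in those runs, at 1.80 without Axil 3 and 1.58 without Root 1 for axil minus root of HannXRQ_Chr04g0113251.

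HannXRQ_Chr04g0113251, on chromosome 4, ranked first by its smallest difference. It had 1.75, 1.18 and 4.58 FPKM in leaf, against 52.9, 120 and 179 in axil, 9.17, 47.3 and 24.7 in root, 19.0, 20.6 and 26.3 in flower and 20.2, 26.7 and 5.99 in stem. All 3 axil libraries were above the other 12, most clearly Axil 3. The log2 difference was 2.18 ± 0.63 for axil minus root (SE; limma adjusted p = 0.0129), 2.72 ± 0.63 for axil minus stem (limma adjusted p = 0.00412) and 2.21 ± 0.63 for axil minus flower (limma adjusted p = 0.0105). HannXRQ_Chr10g0282821 on chromosome 10 had 0.585, 0.222 and 1.19 FPKM in leaf, against 29.3, 120 and 190 in axil, 10.5, 42.6 and 10.1 in root, 7.63, 6.27 and 14.2 in flower and 15.8, 10.5 and 41.8 in stem. Axil 1 was below Root 2 and Stem 3, so the groups overlapped. Its axil minus stem difference of 2.14 ± 0.70 (SE; limma adjusted p = 0.0268) lost its call without Axil 2 (1.91), Axil 3 (1.58), Stem 1 (2.00) or Stem 2 (1.73). Its axil minus root difference of 2.33 ± 0.70 (SE; limma adjusted p = 0.0162) lost it without Axil 2 (2.10), Axil 3 (1.77), Root 1 (2.02) or Root 3 (1.99).

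In the opposite direction, 2 of the 39 were lower in axil than in each of the other 3 tissues, where 0.523% of all genes tested and 0.388% of the genes with the floor were. HannXRQ_Chr11g0345351 on chromosome 11 had 1.68, 1.48 and 2.49 FPKM in leaf, against 31.0, 11 and 13.8 in axil, 49.8, 63.9 and 30.5 in root, 270, 195 and 278 in flower and 150, 182 and 180 in stem. The tissues ran from leaf through axil and root to stem and flower, and only Axil 1 overlapped a root library. The log2 difference was -1.40 ± 0.33 for axil minus root (SE; limma adjusted p = 0.00420), -3.26 ± 0.33 for axil minus stem (limma adjusted p = 1.49e-05) and -3.78 ± 0.33 for axil minus flower (limma adjusted p = 1.60e-06). HannXRQ_Chr01g0004491 on chromosome 1 had 0.452, 0.763 and 0.469 FPKM in leaf, against 7.30, 13.0 and 1.64 in axil, 40.5, 29.7 and 27.8 in root, 18.2, 31.7 and 18.8 in flower and 18.5, 14.1 and 16.1 in stem. Axil 3 was close to the leaf libraries. Its axil minus stem difference of -1.35 ± 0.44 (SE; limma adjusted p = 0.0286) was not called without Axil 3 (-0.67), Stem 1 (-1.25) or Stem 3 (-1.35). The count of 2 was 1 without any 1 of those libraries and 4 without Axil 1.

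The 8 genes that peaked in root had root means of 27.2 to 840 FPKM and leaf means of 0.410 to 15.8 FPKM. Of the 39, 3 (7.69%) were called higher in root than in axil, flower and stem, against 8.11% of all genes tested and 2.57% of the genes with the floor (5 without Axil 3). HannXRQ_Chr01g0023471 on chromosome 1 led them. It had 0.975, 2.32 and 1.17 FPKM in leaf, against 14.3, 12 and 7.56 in axil, 56.5, 96.9 and 53.7 in root, 12.8, 12.8 and 10.9 in flower and 18.6, 22.1 and 25.2 in stem. Its root libraries lay above all others, with a log2 difference of -2.50 ± 0.27 for axil minus root (SE; limma adjusted p = 6.06e-06), 1.57 ± 0.27 for root minus stem (limma adjusted p = 0.000260) and 2.36 ± 0.27 for root minus flower (limma adjusted p = 5.16e-06).

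HannXRQ_Chr03g0078771 on chromosome 3, the gene at the edge of the rule, followed. It had 0.297, 0.733 and 0.202 FPKM in leaf, against 6.68, 3.36 and 4.43 in axil, 40.1, 108 and 75.6 in root, 10.8, 7.92 and 11.9 in flower and 25.1, 21.0 and 48.1 in stem. Leaf and axil were the 2 lowest tissues, and root overlapped stem through Stem 3. Root minus stem, 1.20 ± 0.36 (SE; limma adjusted p = 0.0130), was not called without Root 2 (0.88) or Stem 2 (0.97), whereas axil minus root was -3.63 ± 0.36 (SE; limma adjusted p = 3.28e-06).

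Root was lower than each of the other 3 tissues for 3 of the 39 (7.69%), against 6.68% of all genes tested and 4.05% of the genes with the floor. HannXRQ_Chr09g0273401 on chromosome 9 had 4.37, 0.701 and 9.49 FPKM in leaf, against 113, 86.3 and 50.7 in axil, 21.8, 13.6 and 20.8 in root, 93.4, 144 and 119 in flower and 68.1, 91.2 and 52.9 in stem. Its root libraries lay between leaf and all others. Axil minus root was 2.05 ± 0.51 (SE; limma adjusted p = 0.00570) and root minus flower was -2.61 ± 0.51 (SE; limma adjusted p = 0.000646). HannXRQ_Chr17g0558861 on chromosome 17 had 0.434, 0.619 and 0.922 FPKM in leaf, against 286, 65.0 and 74.3 in axil, 13.9, 21.0 and 20.3 in root, 66.3, 49.1 and 59.4 in flower and 153, 181 and 487 in stem. Root minus stem was -3.65 ± 0.50 (SE; limma adjusted p = 4.17e-05), with Axil 1 and Stem 3 standing above the other libraries of their tissues. The stem mean was 167 FPKM without Stem 3 and the axil mean 69.7 FPKM without Axil 1.

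The 12 genes that peaked in flower had flower means of 23.9 to 570 FPKM and leaf means of 0.384 to 20.7 FPKM. Flower exceeded each of axil, root and stem for 2 of the 39 (5.13%), against 5.63% of all genes tested and 2.25% of the genes with the floor (4 without Stem 3). HannXRQ_Chr08g0212371 on chromosome 8 had the widest spread among the 4 other tissues, 5.43 on the log2 scale. It had 0, 0.942 and 0.211 FPKM in leaf, against 20.2, 10.5 and 6.22 in axil, 19.2, 20.2 and 11.7 in root, 589, 411 and 570 in flower and 16.7, 43.7 and 22.8 in stem. Flower stood far above axil, root and stem, and leaf below all of them. The log2 difference was -5.43 ± 0.41 for axil minus flower (SE; limma adjusted p = 4.22e-07), -4.88 ± 0.41 for root minus flower (limma adjusted p = 3.08e-07) and 4.29 ± 0.41 for flower minus stem (limma adjusted p = 4.35e-06). The leaf values rest on 0, 8 and 2 reads.

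HannXRQ_Chr10g0299611 on chromosome 10 was the other flower gene. It had 0.611, 1.12 and 0.445 FPKM in leaf, against 11.7, 6.28 and 9.55 in axil, 7.64, 22.9 and 16.2 in root, 48.4, 35.0 and 49.9 in flower and 20.0, 18.6 and 15.5 in stem. Flower minus stem was 1.25 ± 0.32 (SE; limma adjusted p = 0.00958).

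Of the 39, 1 was lower in flower than in axil, root and stem, where 2.40% of all genes tested and 2.08% of the genes with the floor were (2 without Stem 3). This was HannXRQ_Chr04g0114741 on chromosome 4, with 1.52, 2.88 and 2.17 FPKM in leaf, against 98.3, 41.3 and 78.1 in axil, 222, 451 and 234 in root, 13.3, 26.0 and 13.6 in flower and 363, 422 and 212 in stem. Root and stem overlapped at the top, axil lay below them and flower between axil and leaf. Root minus flower was 4.01 ± 0.38 (SE; limma adjusted p = 1.11e-06) and flower minus stem was -4.17 ± 0.38 (SE; limma adjusted p = 3.18e-06).

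The 12 genes that peaked in stem had stem means of 17.6 to 332 FPKM and the lowest leaf levels, 0.0504 to 4.83 FPKM with a median of 0.923. Stem exceeded each of axil, root and flower for 4 of the 39 (10.3%), against 3.10% of all genes tested and 1.35% of the genes with the floor. This count stayed at 4 or 5 when each library was left out. HannXRQ_Chr15g0493261 on chromosome 15 had 0, 0.209 and 0.0932 FPKM in leaf, resting on 0, 2 and 1 reads, against 28.4, 22.6 and 11.3 in axil, 17.2, 10 and 18.1 in root, 8.06, 16.0 and 12.8 in flower and 75.6, 45.2 and 77.2 in stem. The stem libraries lay above the other 12, with log2 differences of -1.67 ± 0.34 for axil minus stem (SE; limma adjusted p = 0.00184), -2.06 ± 0.34 for root minus stem (limma adjusted p = 0.000191) and -2.34 ± 0.34 for flower minus stem (limma adjusted p = 0.000159).

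HannXRQ_Chr09g0262961 on chromosome 9 had 0.560, 3.41 and 0.952 FPKM in leaf, against 20.9, 7.03 and 7.34 in axil, 55.6, 31.2 and 38.4 in root, 12.9, 8.61 and 16.1 in flower and 128, 105 and 107 in stem. Stem and root stood apart from flower and axil, and axil minus stem was -3.32 ± 0.42 (SE; limma adjusted p = 7.32e-05). Stem was lower than each of the other 3 for 0 of the 39 in limma, against 0.549% of all genes tested and 0.395% of the genes with the floor. At an unadjusted p under 0.05, 1 gene was, and with voom 0.

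**Figure D4:**
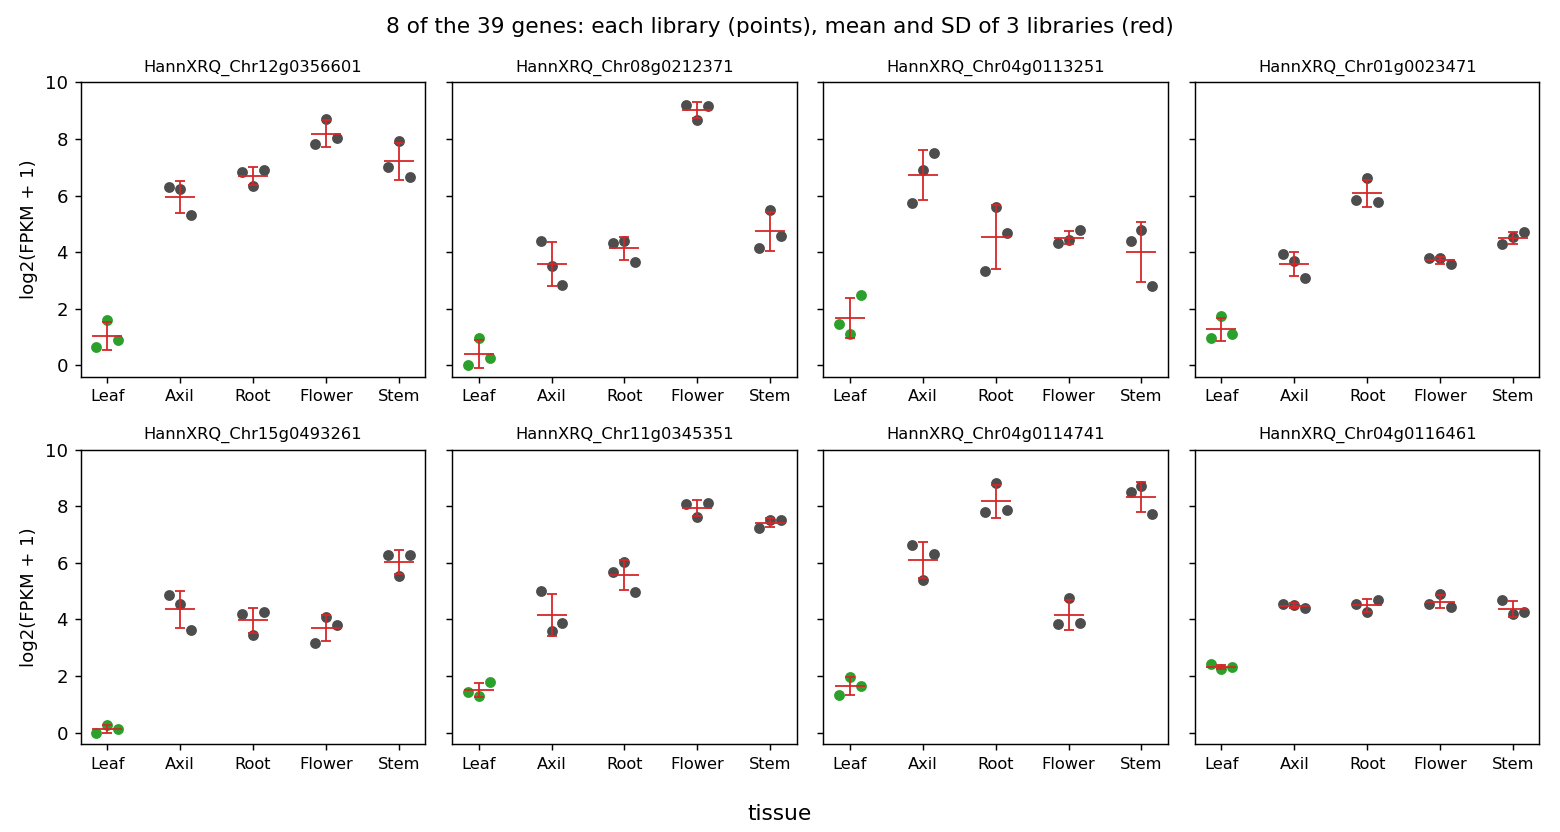
Level of 8 of the 39 genes in each library as log2(FPKM + 1), by tissue, with leaf in green and the mean and SD of 3 libraries in red. Leaf is the lowest tissue in each panel by the rule, while the highest is flower, flower, axil, root, stem, flower, stem and, with little between the 4, flower.

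A few genes were even outside leaf. The range of the 4 other tissue means was under 1 on the log2 scale for 3 of the 39. HannXRQ_Chr04g0116461 on chromosome 4, with a range of 0.25, had 4.33, 3.74 and 3.94 FPKM in leaf, against 22.4, 22.0 and 20.1 in axil, 22.4, 18.1 and 24.8 in root, 22.3, 28.6 and 20.8 in flower and 24.7, 17.1 and 18.1 in stem. All 12 other libraries lay within 17.1 to 28.6 FPKM, and none of its 6 pairwise differences was called (limma adjusted p = 0.280 to 0.995). HannXRQ_Chr14g0429881 on chromosome 14, with a range of 0.48, had 4.53, 4.38 and 5.59 FPKM in leaf and between 20.7 and 39 in the other 12. Its widest difference was root minus stem, -0.48 ± 0.16 (SE; limma adjusted p = 0.0211), under the required size. These 2 genes were read deeply, with 179 to 260 reads in leaf for HannXRQ_Chr14g0429881 and 191 to 225 for HannXRQ_Chr04g0116461. Over all 39, the range of the 4 means had a median of 2.18, against 0.88 for the genes with the floor.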

How the data were processed

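The authors deposited FPKM values for 15 libraries and their mean FPKM per tissue. The submitters' processing notes name HTSeq 0.6.1. No aligner or build was given in the sources used here. Per the labels' protocols, mRNA was captured with oligo(dT), and adaptors carried molecular identifiers. Whether these entered the counting is not stated. A further 16 unnamed columns were not used. Chromosome numbers are those in the identifiers.

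Titles gave each library's tissue. FPKM steps gave whole library totals, and whole reads (within 0.0001) for 50567 of 50567 rows with reads, checked on simulated reads. The shortest fitting length was taken, so a row whose reads share a factor gets too few reads and too short a length. Recovered reads summed to slightly less than the total in each library, such as 12877119 of 12880224 in Flower 1. Genes reaching 1 FPKM in 3 or more libraries (34586, all 39 members among them) were fitted as log2(FPKM + 1) with limma 3.58.1 (eBayes with trend, R 4.3.3) on 15 libraries, with p-values adjusted by Benjamini-Hochberg over all genes tested. This scale understates changes of low genes. The fit was tested on simulated data. Named genes were those with the largest margins, smallest margins, highest levels (in leaf and in the other libraries), smallest ranges and largest differences per tissue, at most 2 of each, and genes chosen later are marked. No 2 members were adjacent in identifier order, so no adjacent pair was named. The members and lists were chosen with earlier results of these data known. Gene lists by product name could not be used, since no identifier is paired with one. Selection and figures relied on pandas 2.3.3, matplotlib 3.10.9 and numpy 2.4.6 under Python 3.11.15.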

Additional observations from a re-analysis of the deposited data

How the results depend on the processing

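The 6 comparisons and the F test were recomputed under other pseudocounts, filters, scalings, variance models and fits, and without each library. Of 468 recomputed counts, 428 stayed within 1.5 times the reported one. These also took in the genes above or below all 3 others, those called in none and those under the rule. Many of them could hardly move, such as counts recomputed without a library of a tissue outside the comparison. Of 6552 recomputed pairwise differences of the 39 genes, 6302 kept their side of the threshold, 172 lost a call and 78 gained one. Of those called in either run, 0 turned round. A change of sign in a difference called in neither run was not counted. Many could not turn round. Other filters, variance models, thresholds, the replicate block and the fit without leaf leave the difference itself unchanged. So does removing a library of a tissue outside the comparison. A required log2 difference of 2 could only remove calls, and adjusted p alone could only add them. limma's voom on recovered reads and the counts of genes above or below all 3 others were added after the data were seen.

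The number of genes under the rule depended on the scale: 244 with a pseudocount of 0.1 and 7 with a pseudocount of 5, 345 with a margin of 1 and 7 with a margin of 3. It was 44 with libraries scaled to the same sum (all 39 kept), 30 with median-of-ratios scaling and 31 with quantile normalization, and 35 to 55 without each library. With a log2 difference of at least 2, called genes were 11 (6 higher, 5 lower), 10 (4 and 6) and 10 (5 and 5) in axil minus root, stem and flower, 4 in root minus stem, 7 in root minus flower and 5 in flower minus stem, 17 were called in none, and genes lower in axil or higher in root than all others, lower in root or flower, or higher in stem were 0, with 1 higher in flower. These thresholds move counts by construction.

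Genes lower in axil than all others were 1 with a pseudocount of 5 and 4 with median-of-ratios scaling or adjusted p alone. Genes higher in flower were 4 with quantile normalization or adjusted p alone, and lower in stem 1 with libraries scaled to the same sum, quantile normalization or adjusted p alone. The cause was not tested. Scaling to the same sum put the median of all genes at 0.09 in root minus stem and 0.11 in root minus flower, against -0.04 and -0.01 as deposited.

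Without each library, calls ranged from 15 to 20 in axil minus root, 13 to 24 in axil minus stem, 16 to 19 in axil minus flower, 11 to 16 in root minus stem, 18 to 21 in root minus flower, 11 to 14 in flower minus stem and 31 to 35 in the F test. Genes above all 3 others were 0 to 4 in axil, 2 to 5 in root, 2 to 4 in flower and 4 to 5 in stem. Genes below were 1 to 4, 2 to 3, 1 to 2 and 0 to 2 in the same order, and 4 to 7 were called in none.

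Replicate numbers were treated as names of libraries, since the labels do not say what libraries with the same number share. The deviations of libraries that share a number had a median correlation of -0.0334 (30 pairs, -0.337 to 0.196). Only 2 of 15 were closest to their own number. These values cannot show whether such libraries came from the same plant or day. With a replicate block, 18 genes were called in axil minus root and 32 in the F test, and no count moved by over 1.5 times. Leaf levels of 3 reads or fewer limit the margins.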

Other observations

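The 39 genes lay on 14 chromosomes, with 5 each on chromosomes 4 and 10 (12.8% each). Those chromosomes hold 5.85% and 7.13% of the HannXRQ_Chr genes tested. None (0) lay on chromosomes 2, 5 and 6, which hold 4.73%, 6.17% and 4.09% of the genes tested. The 39 were spread out: the closest pair, HannXRQ_Chr04g0113251 and HannXRQ_Chr04g0114741, had 149 identifiers between them. Of the 41 direct neighbours of members that passed the filter on low values, 15 (36.6%) were lowest in leaf, against 28.9% of the HannXRQ_Chr genes tested, and 0 had a leaf margin of at least 1, where 1.24% of those genes do. The lengths implied by the FPKM steps had a median of 1358 nt in the 39 genes and 1539 nt in all genes tested.

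Over the 12 libraries other than leaf, the 741 pairs of members had a median Pearson correlation of -0.01, from -0.93 to 0.93, and 30 pairs reached 0.8. These values share libraries and are a description, and they were not computed for other genes. The pairs named were chosen after their values were seen. HannXRQ_Chr15g0493261 and HannXRQ_Chr10g0293511, both peaking in stem, correlated at 0.93. HannXRQ_Chr01g0023471, HannXRQ_Chr07g0187331 and HannXRQ_Chr03g0078771, which all peaked in root, correlated pairwise at 0.90 to 0.91. HannXRQ_Chr17g0558861, lower in root than in each other tissue outside leaf, and HannXRQ_Chr12g0354261, higher in root than in each of them, correlated at -0.93.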
